A study of Sus scrofa with 31 samples.

Results

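TIMP1 and 9 other genes of extracellular matrix remodelling (TIMP2, TIMP3, MMP2, FN1, THBS1, THBS2, DCN, SPARC and POSTN) were followed in pig (Sus scrofa) hearts during cold storage and after rewarming. The 10 genes were chosen by name. Of these, 9 were read among the 21313 genes of the storage arm (all but TIMP2) and 9 among the 25149 genes of the rewarming arm (all but TIMP3), so that 8 were measured in both. All 9 passed the minimum mean of 10 in each arm, where 14141 and 4388 genes were tested.

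Arm 1 held 24 libraries from 6 hearts, each biopsied at 0, 12, 24 and 48 h. The hearts of pigs 2, 4 and 6 were kept by HOPE and those of pigs 1, 3 and 5 by SCS. The labels do not spell these out; the usual readings are hypothermic oxygenated perfusion, in which cold oxygenated solution is pumped through the heart, and static cold storage, in which the heart lies in cold solution. Arm 2 held 7 libraries from hearts that were stored and afterwards perfused warm for 2 h (normothermic machine perfusion, NMP). Storage had been by HOPE for 3 h (2 libraries), 24 h (2) or 48 h (2), or by SCS for 24 h (1). The labels used here name no strain, sex, age, drug or genotype, and they do not say whether arm 2 libraries of equal number share an animal. The labels name cardiomyocytes as the cell type, but whole myocardium was biopsied, and all 10 fibroblast markers and all 9 endothelial markers looked for were detected in arm 1 beside 7 of 8 cardiomyocyte markers. In such tissue, fewer cells of a type and less RNA per cell cannot be told apart.

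The cardiac extracellular matrix is made mostly by fibroblasts and is turned over by secreted proteases. Matrix metalloproteinases such as MMP2 cleave it, and the tissue inhibitors of metalloproteinases (TIMPs) bind these enzymes and block them. TIMP1 is a small secreted inhibitor known as an inducible gene in injured tissue, while TIMP3 is itself held in the matrix and TIMP2 takes part in the activation of MMP2 as well as its inhibition. Around them, fibronectin (FN1) is an adhesive scaffold protein, decorin (DCN) a small proteoglycan that coats collagen fibrils, and thrombospondins 1 and 2 (THBS1 and THBS2), SPARC and periostin (POSTN) are matricellular proteins, which tune how cells meet the matrix and are known to be induced in the injured heart.

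On the Sscrofa11.1 build, TIMP1 spans X:42103251-42106289 and is the shortest of the 10 genes at 3039 bp. TIMP2 spans 12:3254794-3300835, TIMP3 spans 5:12185816-12242599 and MMP2 spans 6:30059247-30087031. FN1 spans 15:117658158-117737145, THBS1 spans 1:131728781-131746098 and THBS2 spans 1:854473-882467. DCN spans 5:91678601-91713925, SPARC spans 16:71368164-71380972 and POSTN spans 11:13225183-13258973. All 10 are protein-coding. TIMP1 lies within the span of SYN1, a neuronal synapsin gene, TIMP3 lies within that of SYN3, and SPARC, POSTN and TIMP2 each overlap another annotated gene. Strand use in the counting is unknown here, so reads of overlapping genes may be split between them. At 48 h, SYN1 averaged 838 ± 96.8 normalized counts in HOPE hearts and 634 ± 125 in SCS hearts (SD, n = 3 each), an order opposite to that of TIMP1 below. The SYN1 ranges overlapped at 48 h. SYN1 was already higher in HOPE and apart at 0 h, at 606 to 906 in HOPE and 419 to 526 in SCS. The part of shared reads in either gene was not tested.

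Values in arm 1 are normalized counts, that is, read counts divided by 1 size factor per library, from libraries of 19722065 to 35099406 recovered reads; they are not divided by gene length, so levels of different genes are not compared, and a ratio of 2 genes is used only to follow its change between libraries. Fold changes are log2 values ± SE on log2(value + 1), tested with limma across all genes of the arm with Benjamini-Hochberg adjustment and a threshold of 0.05. The 13 mitochondrially encoded genes took 29.0% to 31.8% of the counts in HOPE libraries at 48 h and 48.0% to 82.4% in SCS libraries at 48 h, against 33.2% to 39.5% and 35.9% to 52.5% in those hearts at 0 h. With scaling to total counts the median of all genes was 1.12 in HOPE against SCS at 48 h and -0.99 in SCS at 48 h against 0 h, against 0.02 and -0.03 with the deposited size factors. Calls of members that this scaling changes are given below.

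TIMP1 was lower in HOPE than in SCS hearts at 24 and 48 h. HOPE hearts stayed near or below their own starting level, and every SCS heart was above its own at 12, 24 and 48 h. In pig 2 (HOPE) TIMP1 read 238.7, 197.0, 247.7 and 185.9 normalized counts at 0, 12, 24 and 48 h. In pig 4 (HOPE) it read 302.9, 177.9, 195.7 and 223.2, and in pig 6 (HOPE) 472.8, 400.5, 384.8 and 486.5. Pig 6 was the highest HOPE heart at every time. In pig 1 (SCS) TIMP1 read 384.7, 437.2, 696.9 and 746.4 normalized counts at the same times. In pig 3 (SCS) it read 573.8, 672.8, 961.2 and 942.4, and in pig 5 (SCS) 477.8, 668.5, 798.9 and 1119.7. The HOPE and SCS ranges overlapped at 0 h and were apart at 12, 24 and 48 h.

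**Figure D1:**
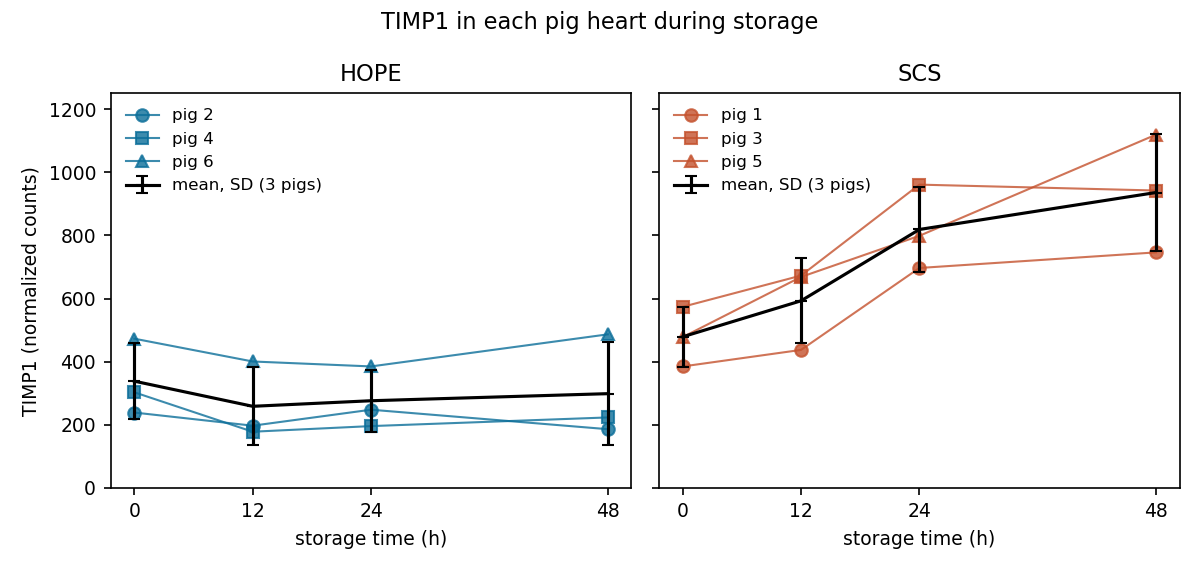
TIMP1 in normalized counts (y axis) against storage time in hours (x axis) for each pig heart, HOPE on the left and SCS on the right. Thin lines join the 4 biopsies of 1 pig, and the black line gives the mean with its SD over 3 pigs. The HOPE hearts lie between 177.9 and 486.5 and the SCS hearts between 384.7 and 1119.7.

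At 48 h TIMP1 averaged 299 ± 164 normalized counts in HOPE hearts and 936 ± 187 in SCS hearts (SD, n = 3 each), a log2 fold change of -1.76 ± 0.36 (limma, adjusted p = 0.017). At 24 h the means were 276 ± 97.7 in HOPE and 819 ± 133 in SCS, a log2 fold change of -1.61 ± 0.36 (limma, adjusted p = 0.0365). TIMP1 was the 1 member of 9 past the threshold at each of these times, where 2.04% of all genes passed at 24 h and 6.25% at 48 h. At 12 h the means were 258 ± 123 in HOPE and 593 ± 134.8 in SCS, and the log2 fold change of -1.27 ± 0.36 missed the threshold (limma, adjusted p = 0.238). At 0 h TIMP1 averaged 338 ± 121 in the HOPE pigs and 479 ± 94.5 in the SCS pigs, with a log2 fold change of -0.54 ± 0.36 (limma, adjusted p = 0.68).

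The TIMP1 calls depended on which libraries and which scaling were used, while the direction did not. With total-count scaling the log2 fold change was -1.23 at 24 h and -0.64 at 48 h (limma, adjusted p = 0.137 and 0.178), and with total counts that leave out the mitochondrially encoded genes it was -1.63 and -1.70 (limma, adjusted p = 0.0365 and 0.0172). The main fit takes its spread from all 24 libraries, which hold 4 biopsies of each heart. With only the libraries compared, both calls were lost (limma, adjusted p = 0.0873 at 24 h and 0.214 at 48 h). Leaving out pig 3, pig 5, pig 2 or pig 4 raised the adjusted p to between 0.11 and 0.235 at 24 h and between 0.0728 and 0.166 at 48 h. Leaving out pig 1 or pig 6 kept the call at both times, and without pig 6 the 12 h difference was -1.63 (limma, adjusted p = 0.0015).

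Within pigs, TIMP1 rose in SCS by 48 h in the fit that pairs biopsies of 1 pig, and no HOPE change passed the threshold. From 0 to 48 h its log2 change was 0.95, 0.71 and 1.23 in pigs 1, 3 and 5 (SCS), and 13.9% of all genes were likewise higher in all 3 SCS pigs. In pigs 2, 4 and 6 (HOPE) the 48 h change was -0.36, -0.44 and 0.04, overlapping no SCS pig, where 7.16% of all genes were apart with HOPE lower. The mean change at 48 h against 0 h was 0.97 ± 0.36 in SCS in the fit without pairing (limma, adjusted p = 0.522), and with the pig as a block, which compares each heart with itself, its SE was 0.15 (limma, adjusted p = 0.013). In HOPE at 48 h against 0 h it was -0.25 ± 0.15 with the block (limma, adjusted p = 0.76).

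The difference between the 2 changes, HOPE minus SCS, was -1.22 ± 0.22 at 48 h with the pig block (limma, adjusted p = 0.0418) and -1.22 ± 0.51 without it (limma, adjusted p = 0.988). TIMP1 was the 1 member of 9 past the threshold in the blocked test of this difference, where 18 of all genes (0.127%) passed. Without the pig block none of the 14141 genes passed, and 1 member had an unadjusted p under 0.05, as had 510 of all genes. At 24 h the difference was -1.07 (limma with the pig block, adjusted p = 0.269). With total-count scaling and the block, the SCS change was -0.01 (limma, adjusted p = 0.964) and the difference -0.23 (limma, adjusted p = 0.552). With the mitochondrially encoded genes left out of the totals they were 0.77 (limma, adjusted p = 0.024) and -1.12 (limma, adjusted p = 0.0517). Leaving out pig 5, 2 or 4 ended the blocked SCS call (limma, adjusted p = 0.114, 0.0672 and 0.0579), and leaving out pig 5, 2, 4 or 6 ended that of the difference (limma, adjusted p of 0.151 to 0.367). Without the SCS 48 h library of pig 5 alone, which held the highest mitochondrial share, the adjusted p values were 0.0768 and 0.085 (limma with the pig block).

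The other TIMP of arm 1, TIMP3, did not follow TIMP1. At 48 h it read 9388, 11482 and 11741 normalized counts in HOPE hearts (pigs 2, 4 and 6) and 4034, 15842 and 7759 in SCS hearts (pigs 1, 3 and 5). Pigs 1 and 5 were the lowest and pig 3 the highest of the 6, so the SCS range enclosed the HOPE range. Against their own 0 h biopsies all 3 SCS hearts were lower, by between -1.33 and -0.08, with a mean of -0.72 (limma, adjusted p = 0.666, and 0.0584 with the pig block). HOPE hearts changed by -0.35 to 0.23.

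The ratio of TIMP1 to another member within a library does not depend on how libraries are scaled to each other; it is a ratio of counts with no length correction, so its size says nothing of which gene is the more abundant. TIMP1 stood at 4.78%, 6.15% and 10.5% of the MMP2 count in HOPE hearts at 48 h (pigs 2, 4 and 6) and at 22.96%, 15.6% and 25.1% in SCS hearts (pigs 1, 3 and 5). At 0 h the same hearts had 6.45%, 10.045% and 12.2% in HOPE and 8.07%, 10.7% and 11.3% in SCS. The log2 ratio thus changed by -0.43, -0.71 and -0.22 in HOPE pigs and by 1.51, 0.54 and 1.15 in SCS pigs, down in every HOPE heart and up in every SCS heart. The mean change was -0.46 ± 0.24 in HOPE and 1.07 ± 0.49 in SCS (SD, n = 3 each; two-sided exact permutation test, p = 0.1, the smallest that 3 against 3 can give).

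**Figure D2:**
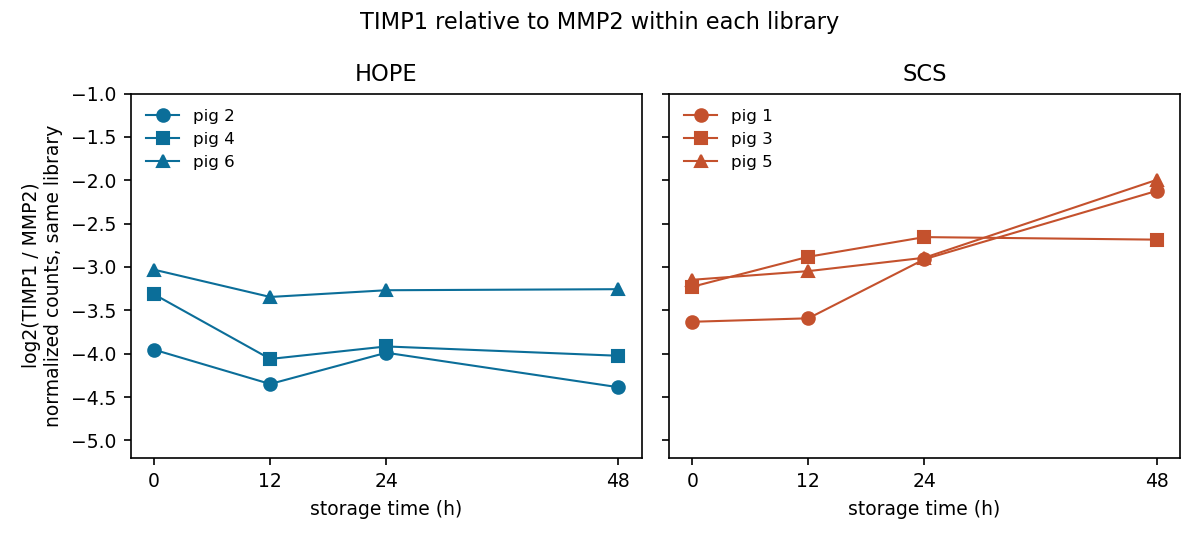
The log2 ratio of TIMP1 to MMP2 normalized counts in the same library (y axis) against storage time in hours (x axis), with 1 line per pig, HOPE on the left and SCS on the right. From 0 to 48 h the ratio changed by -0.71 to -0.22 in HOPE hearts and by 0.54 to 1.51 in SCS hearts.

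Against TIMP3 the TIMP1 ratio changed by -0.31, -0.67 and 0.39 in HOPE pigs 2, 4 and 6. In SCS pigs 1, 3 and 5 it changed by 2.29, 0.79 and 1.99. The groups did not overlap, with means of -0.20 ± 0.54 in HOPE and 1.69 ± 0.79 in SCS (SD, n = 3 each; two-sided exact permutation test, p = 0.1). These ratios were chosen after the data had been seen.

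MMP2, the gelatinase that TIMPs inhibit, was lower in HOPE than in SCS hearts up to 24 h and overlapped at 48 h. At 24 h it read 3931, 2954 and 3707 normalized counts in HOPE hearts (pigs 2, 4 and 6) and 5239, 6056 and 5936 in SCS hearts (pigs 1, 3 and 5). Every HOPE heart was below every SCS heart. The log2 fold change of -0.71 ± 0.20 missed the threshold (limma, adjusted p = 0.0617) and passed with the pig block (limma, adjusted p = 0.0338). The pigs already differed in this way at 0 h, where MMP2 read 3697, 3015 and 3865 in HOPE and 4769, 5375 and 4234 in SCS, and the difference between the changes at 24 h was -0.27 ± 0.21 (limma with the pig block, adjusted p = 0.713).

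At 48 h MMP2 averaged 4054 ± 530 normalized counts in HOPE hearts and 4593 ± 1408 in SCS hearts (SD, n = 3 each). Pig 1 (SCS) read 3251, the lowest of the 6, and pig 3 (SCS) read 6059, the highest. With this wider SCS spread the log2 fold change was -0.14 ± 0.20 (limma, adjusted p = 0.674).

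SPARC, a collagen-binding matricellular protein, was, like MMP2, lower in every HOPE heart than in every SCS heart at 24 h. It read 13626, 11881 and 18054 normalized counts in HOPE hearts (pigs 2, 4 and 6) and 22426, 31008 and 27279 in SCS hearts (pigs 1, 3 and 5), without overlap. The log2 fold change was -0.90 ± 0.31 (limma, adjusted p = 0.0888, and 0.0462 with the pig block). Before storage the groups overlapped, at 12854 to 18931 in HOPE and 17601 to 26068 in SCS. By 24 h SPARC had changed by -0.22 to 0.08 in HOPE and 0.25 to 0.63 in SCS. Of all genes, 6.88% had changes apart with HOPE lower. The difference between these changes did not pass in limma, with or without the block. At 48 h SPARC read 13373, 12226 and 17837 in HOPE and 11670, 33630 and 16544 in SCS, with pig 1 (SCS) below all HOPE hearts.

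Decorin, the collagen-coating proteoglycan, was above its own 0 h level in all 3 SCS pigs at 12 and 24 h, as were 18.4% and 15.3% of all genes. No test of these changes passed. At 24 h it was above its own 0 h level in all 3 HOPE pigs as well, by 0.0006 to 0.036. At 24 h DCN read 10545, 11793 and 10051 normalized counts in HOPE hearts (pigs 2, 4 and 6) and 18973, 13799 and 18498 in SCS hearts (pigs 1, 3 and 5). The groups did not overlap, and the log2 fold change of -0.65 ± 0.20 missed the threshold (limma, adjusted p = 0.0744, and 0.0806 with the pig block). In DESeq2 it was -0.67 and passed (DESeq2, adjusted p = 0.0166). At 48 h the HOPE values of 9878, 12629 and 13973 overlapped the SCS values of 12924, 21239 and 13156.

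Periostin, a matricellular protein of activated fibroblasts, was also lower in HOPE hearts at 24 h. POSTN read 1200, 994 and 575 normalized counts in HOPE hearts (pigs 2, 4 and 6) and 1964, 1282 and 1622 in SCS hearts (pigs 1, 3 and 5). The log2 fold change was -0.86 ± 0.28 (limma, adjusted p = 0.0793, and 0.0585 with the pig block). In DESeq2 it was -0.82 and passed (DESeq2, adjusted p = 0.0446). POSTN was apart in the same direction at 0 h, with 736 to 1160 in HOPE and 1354 to 1504 in SCS, and overlapped at 12 and 48 h.

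Counted together at 24 h, 8 of the 9 members had a negative fold change of HOPE over SCS, with a median of -0.65 beside 0.01 for all genes. The HOPE and SCS libraries did not overlap for 5 members, all lower in HOPE (TIMP1, MMP2, DCN, SPARC and POSTN), where 12.9% of all genes were apart in that direction. The pig block called 3 members (TIMP1, MMP2 and SPARC) where it called 9.87% of all genes. DESeq2 on the recovered reads called 5 (these, DCN and POSTN), all lower in HOPE, where it called 10.8%. In simulated data DESeq2 called more genes falsely than the other fits. Without pig 1 limma called 4 members, where it called 19.2% of all genes. Of these TIMP1, MMP2 and SPARC were lower in HOPE, and THBS1 was higher, at 1.39 (limma, adjusted p = 0.0308). Without pig 6 limma called the same 3 lower members, where it called 17%. Without pig 2 (0.0495% of all genes called) or pig 3, 4 or 5 (0.0141% each) it called none. Much of this direction was there before storage: at 0 h 7 of the 9 members were negative, with a median of -0.44 beside -0.02 for all genes. The difference between the changes at 24 h, HOPE minus SCS, had a median of -0.27 beside 0.05 for all genes. Limma called no member and none of the 14141 genes for that difference, with or without the pig block. At 0 h 2 members (MMP2 and POSTN) were apart, again with HOPE lower, where 6.19% of all genes were. Both limma (0%) and DESeq2 (0.0778% of all genes) called no member there. In limma 1 had an unadjusted p under 0.05, as had 1020 of the 14141 genes. At 12 h 4 members (TIMP1, MMP2, DCN and SPARC) were apart with HOPE lower, where 12% of all genes were. No member was called by limma (0.0141% of all genes called), by limma with the pig block (0.0424%) or by edgeR (0.0141%) or DESeq2 (0.608%). At this time limma gave 3 members an unadjusted p under 0.05, as it did 2311 of the 14141 genes.

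**Figure D3:**
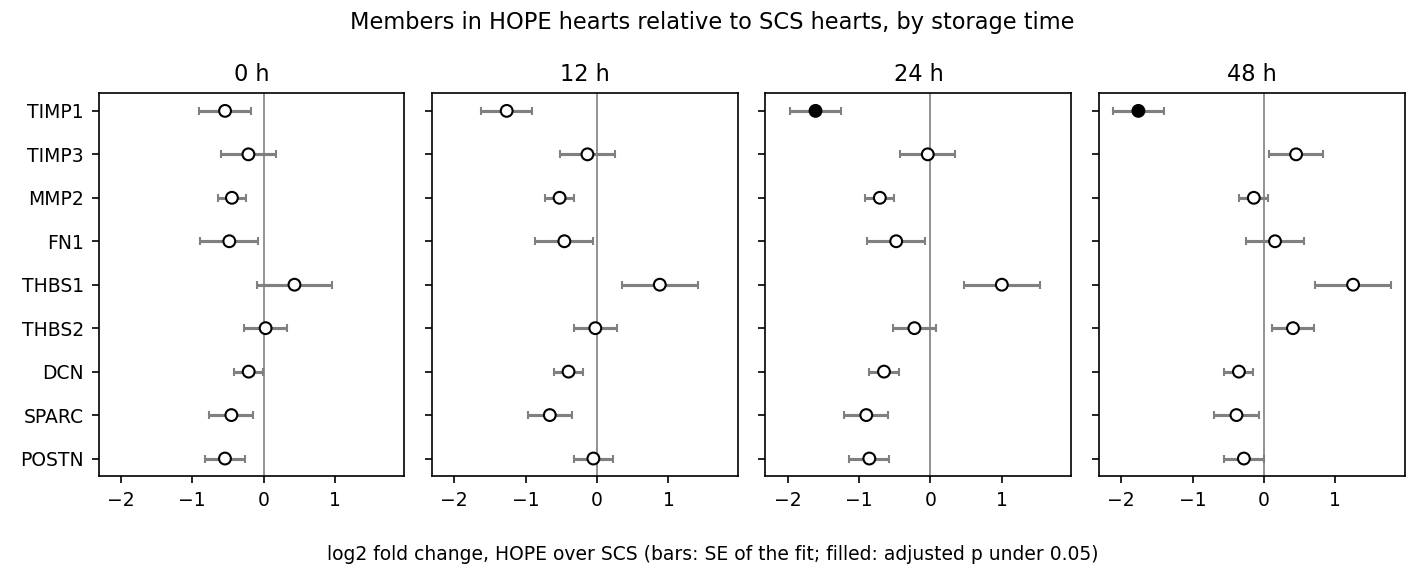
Log2 fold change of HOPE over SCS (x axis) for the 9 members of arm 1 (y axis), at 0, 12, 24 and 48 h of storage from left to right. Points are limma estimates with their SE, from 3 hearts each, and filled points passed an adjusted p of 0.05. TIMP1 at 24 and 48 h is the filled member, at -1.61 and -1.76.

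At 48 h the members did not share a direction. The median of the 9 members was -0.14 (all genes 0.02), 5 were negative, and the libraries were apart for TIMP1 (lower in HOPE, as were 10.2% of all genes) and THBS1 (higher in HOPE, as were 10.5%). DESeq2 called 1 member at 48 h, TIMP1, where it called 13.7% of all genes. With total-count scaling 5 members passed at 48 h, all higher in HOPE, where 57.4% of all genes passed and the median of all genes was 1.12. These were TIMP3 at 1.57, MMP2 at 0.98 (reversed), FN1 at 1.27, THBS1 at 2.37 and THBS2 at 1.52 (limma, adjusted p = 0.00581, 0.0322, 0.0413, 0.00736 and 0.0114). Markers of fibroblasts, which make most of these proteins, are given beside these counts. Their summed level ran from 58429 to 65706 normalized counts in HOPE and from 80322 to 103901 in SCS at 24 h, and from 68819 to 74092 in HOPE and from 43701 to 130920 in SCS at 48 h, with none of the 10 at 0. At 24 h limma called 2 of the 10, where it called 2.04% of all genes, and at 48 h none, where it called 6.25%. The 2 were lower in HOPE (TCF21 and PI16, named after their values were seen). PI16 was already apart in that direction at 0 h, at 372 to 691 in HOPE and 1024 to 1726 in SCS, while TCF21 overlapped. The part of fibroblast RNA in the members' values was not tested.

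Thrombospondin 1, a matricellular activator of latent TGF-beta that also restrains vessel growth, was the member with the pattern least like TIMP1. At 48 h THBS1 read 2657, 2094 and 2153 normalized counts in HOPE hearts (pigs 2, 4 and 6) and 1932, 1004 and 459 in SCS hearts (pigs 1, 3 and 5). All HOPE hearts were above all SCS hearts. The log2 fold change was 1.25 ± 0.53 in the fit without pairing (limma, adjusted p = 0.132) and 1.25 ± 0.39 with the pig block (limma, adjusted p = 0.0397).

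The SCS pigs differed widely in THBS1 from the start, with 3454, 1681 and 718 normalized counts at 0 h in pigs 1, 3 and 5, against 2525, 2050 and 1979 in HOPE pigs 2, 4 and 6. Relative to its own start, each SCS heart was lower at 48 h, by between -0.84 and -0.64, and each HOPE heart was higher, by 0.03 to 0.12. The mean SCS change was -0.74 ± 0.18 with the pig block (limma, adjusted p = 0.0411) and missed the threshold without it (limma, adjusted p = 0.755). TIMP1 and THBS1 were the 2 of 9 members that the block called in SCS at 48 h against 0 h, 1 higher and 1 lower, where it called 2.18% of all genes. With total-count scaling and no block, limma called 4 members lower in that comparison, where it called 39.5% of all genes and their median was -0.99: TIMP3 at -1.70, MMP2 at -1.08, SPARC at -1.11 and THBS1 at -1.72 (limma, adjusted p = 0.0154, 0.0346, 0.0471 and 0.0493). TIMP1 and THBS1 were also the 2 of 9 that the block called in HOPE against SCS at 48 h, where it called 11.5% of all genes.

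For THBS1 the difference between the changes, HOPE minus SCS, was 0.82 ± 0.25 with the block and missed the threshold (limma, adjusted p = 0.164). With total-count scaling and the block it was 1.81 and passed (limma, adjusted p = 0.00323), on a scale where the median of all genes was itself 1.03. Leaving out any SCS pig, or HOPE pig 2 or 4, ended the blocked SCS call (limma, adjusted p of 0.0705 to 0.121). The blocked HOPE against SCS call at 48 h was kept without pig 1 (limma, adjusted p = 0.00165) and lost without any other pig (limma, adjusted p of 0.0506 to 0.255) or without the SCS 48 h library of pig 5 alone (limma, adjusted p = 0.123).

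**Figure D4:**
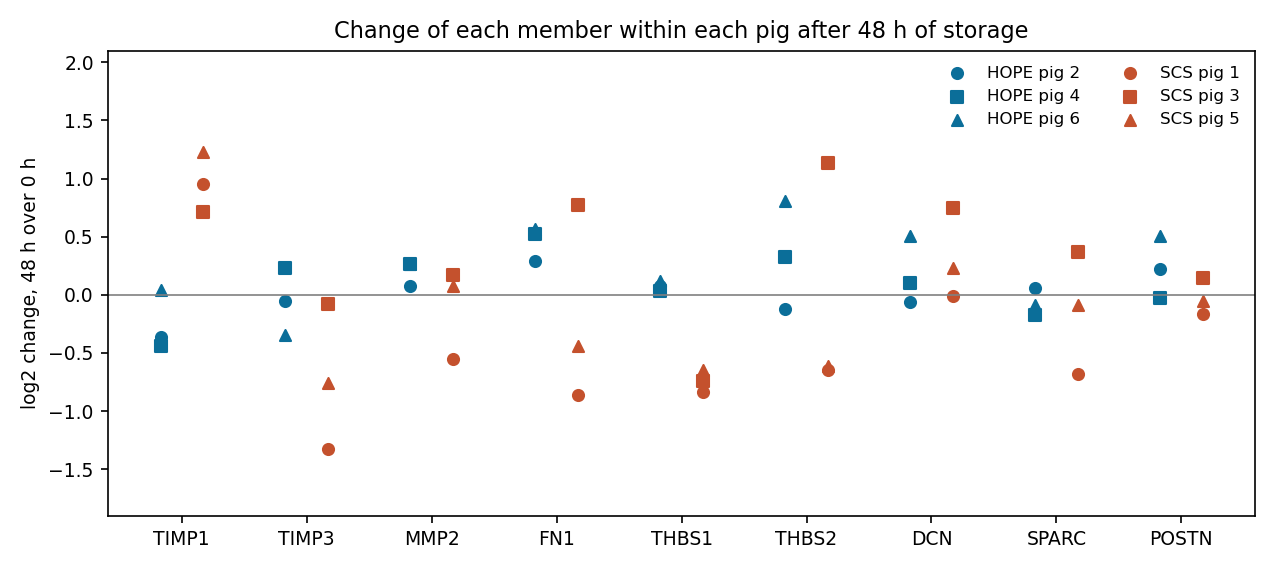
Log2 change from 0 to 48 h within each pig (y axis) for the 9 members of arm 1 (x axis), with HOPE pigs left of SCS pigs for each gene. TIMP1 lies above 0 in all 3 SCS pigs (0.71 to 1.23) and THBS1 below 0 in all 3 (-0.84 to -0.64), while the other members scatter on both sides or overlap between the treatments.

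Thrombospondin 2, its relative that clears MMP2 from the cell surface, and fibronectin, the adhesive scaffold, differed between the treatments by less than the spread of the pigs. At 48 h THBS2 read 624, 971 and 797 normalized counts in HOPE hearts (pigs 2, 4 and 6) and 497, 1055 and 395 in SCS hearts (pigs 1, 3 and 5), with a log2 fold change of 0.41 ± 0.30 (limma, adjusted p = 0.383). FN1 read 2925, 1842 and 1919 in HOPE and 1384, 3503 and 1544 in SCS, with a log2 fold change of 0.16 ± 0.40 (limma, adjusted p = 0.83). In both genes the SCS range enclosed the HOPE range, and pig 3 (SCS) was the highest heart, as it was for TIMP3, MMP2, DCN, SPARC and POSTN.

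In the remaining arm 1 comparisons no member passed. In HOPE hearts at 12, 24 and 48 h, none of the 9 passed in limma, edgeR or DESeq2. None had an unadjusted p under 0.05 in limma without pairing, and with the pig block 1 did at 12 h, as did 559 of all genes. That member was TIMP1, at -0.43 ± 0.15 (limma, adjusted p = 0.998). The fold changes at 48 h ran from -0.25 to 0.46. Across all 14141 genes, limma called none of these HOPE changes (0%), and at 48 h the pig block called 0.00707% and DESeq2 0.0141%. In SCS at 12 h no member passed in any of the 3 tools and none had an unadjusted p under 0.05. At 24 h no member passed, and 2 had an unadjusted p under 0.05 in limma, as had 482 of all genes. These members were TIMP1 at 0.78 ± 0.36 and DCN at 0.46 ± 0.20 (limma, adjusted p = 0.999 for each).

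Across the 24 libraries, TIMP1 had the largest SD among the 9, 0.82 on the log2 scale. THBS1 followed with an SD of 0.78 and had the widest range, 3.08 against 2.65 for TIMP1, and the other 7 had SDs of 0.30 to 0.50, with DCN the least. Among the 36 pairs of members, MMP2 and SPARC were nearest in pattern, with a root mean square (RMS) difference of 0.21 in centred log2 values, followed by MMP2 and DCN at 0.23. TIMP1 and THBS1 were farthest apart, at 1.42. All pairs share the libraries and their size factors.

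The genes nearest to TIMP1 over these libraries, among 9267 named genes with a mean of at least 100, were S100A10, an annexin partner, CSTB, a cysteine protease inhibitor, and DDAH2, of the dimethylarginine hydrolase family. Their RMS differences from TIMP1 were 0.20, 0.20 and 0.24 log2 units, where TIMP1's own RMS deviation was 0.81. At 48 h S100A10 read 664, 694 and 1405 normalized counts in HOPE hearts (pigs 2, 4 and 6) and 1588, 3110 and 3368 in SCS hearts (pigs 1, 3 and 5). Like TIMP1, it was highest in pig 6 among HOPE hearts and apart between the groups. Because it was chosen for its nearness to TIMP1 in these same libraries, this likeness is no support. The nearest genes to DCN were SERPING1, MFAP5 and CERCAM (0.17 to 0.20), those to FN1 were COL5A2, FSTL1 and COL14A1 (0.28 to 0.34), and those to THBS2 were OS9, COL3A1 and INSIG1 (0.24 to 0.26). For SPARC they were CPT1A, CTSK and TSPAN6 (0.18 to 0.19), and for POSTN they were MEDAG, FSTL1 and BTBD8 (0.27 to 0.29). TIMP3 was nearest to H3-3B, SCAMP5 and KLF4 (0.22 to 0.23), and THBS1 to HMCN2, AKR7A2 and RAB20 (0.34 to 0.40).

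Other genes of the same pathways, in 9 lists that hold none of the members, were compared between HOPE and SCS at 48 h in the limma fit, which called 6.25% of all genes. In the list of protease inhibitors and plasminogen activation 1 of 10 tested genes passed, lower in HOPE. This was SERPINE2, an inhibitor of thrombin and urokinase, which averaged 673 ± 107 normalized counts in HOPE hearts, against 1723 ± 156 in SCS hearts (SD, n = 3 each). Its log2 fold change was -1.36 ± 0.21 (limma, adjusted p = 0.00467). SERPINE2 was already apart in that direction at 0 h, at 639 to 696 in HOPE and 887 to 1395 in SCS. Among small leucine-rich proteoglycans, the family of DCN, 1 of 9 passed: BGN (biglycan) averaged 1041 ± 464 in HOPE and 2964 ± 547 in SCS, with a log2 fold change of -1.58 ± 0.38 (limma, adjusted p = 0.028). Among matrix receptors 1 of 15 passed, the hyaluronan receptor CD44, at 408 ± 49.1 in HOPE and 624 ± 23.2 in SCS (limma, adjusted p = 0.0433).

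In 2 lists the gene that passed was higher in HOPE. Among matricellular proteins 1 of 16 passed, SMOC2, a SPARC relative, at 243 ± 45.8 normalized counts in HOPE and 102 ± 31.5 in SCS (limma, adjusted p = 0.0347). In the TGF-beta pathway 1 of 16 passed, LTBP3, which binds latent TGF-beta to the matrix, at 560 ± 68.1 in HOPE and 229 ± 49.6 in SCS (limma, adjusted p = 0.0466). None passed among 8 metalloproteinases, 17 ADAM and ADAMTS proteases, 12 crosslinking enzymes and 17 structural matrix genes. With the pig block, which called 11.5% of all genes, ADAMTS7, ADAMTS1, LAMC1 and LAMB2 of these lists passed, all higher in HOPE. Their log2 fold changes were 0.83, 0.96, 0.81 and 0.65 (limma with the pig block, adjusted p = 0.0247, 0.0293, 0.0223 and 0.0452). The list medians ran from -0.17 to 0.23, around 0.02 for all genes.

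Of the cell type markers, the T and NK cell list was lower in HOPE beside TIMP1 at 48 h. It summed to 254 to 438 normalized counts in HOPE and 776 to 1224 in SCS, all 7 genes were negative, and 4 of 7 passed, lower in HOPE, among them GNLY at 135.2 ± 32.6 in HOPE and 558 ± 120 in SCS (SD, n = 3 each; limma, adjusted p = 0.0238). None of the 7 was at 0 in every library. In the smooth muscle list 1 of 6 passed, TAGLN, at 1924 ± 643 in HOPE and 4949 ± 2382 in SCS (SD, n = 3 each; limma, adjusted p = 0.04), and the list summed to 8728 to 11914 in HOPE and 12624 to 21134 in SCS. The endothelial list had 0 of 9 past the threshold in limma and 1 of 9 with the pig block, CLDN5, lower in HOPE by a log2 fold change of -1.59 ± 0.39 (limma with the pig block, adjusted p = 0.0154). CLDN5 was already apart in that direction at 0 h, at 500 to 2064 in HOPE and 2325 to 2641 in SCS. In the red cell list 1 of 3 passed, higher in HOPE. The cardiomyocyte list summed to 1064059 to 1284099 in HOPE and 645886 to 1125141 in SCS, with 0 of 7 past the threshold in limma and 5 positive. With the pig block, which called 11.5% of all genes, MYBPC3 and MYH7 passed, higher in HOPE. Their log2 fold changes were 1.03 ± 0.31 and 1.48 ± 0.45 (limma with the pig block, adjusted p = 0.0344 and 0.039). The part of these cell types and of the mitochondrial share in the TIMP1 values was not tested.

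After 2 h of warm perfusion (arm 2), values are in TPM, a transcript's share of its library after division by gene length. The single library after 24 h of SCS stood apart from the 6 HOPE libraries. Its 6 detected cardiomyocyte markers summed to 1712 TPM, against 29115 to 46079 in the HOPE libraries, its red cell markers to 6161 TPM, against 34.2 to 3125, and 2 unnamed genes took 15.5% of its total, against 0.534% to 2.37%. The mitochondrially encoded genes took 54.7% of it, against 39.8% to 51.1%. The median gene was -1.12 in SCS 24 h against HOPE 24 h, and limma called 2378 of 4388 genes (54.2%), 2272 of them lower, so values of the members in this comparison are read against that shift.

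In HOPE hearts, all 9 members had a positive fold change after 24 h of storage and NMP over 3 h and NMP, with a median of 0.94 (all genes 0.22). For 8 of them both 24 h libraries were above both 3 h libraries, where 39.3% of all genes were. THBS1 had 904 and 680 TPM after 24 h of HOPE and 429 and 169 TPM after 3 h, a log2 fold change of 1.54 ± 0.45 (limma, adjusted p = 0.241). FN1 had 17.8 and 30.0 TPM after 24 h and 10.8 and 7.86 after 3 h (log2 fold change 1.24 ± 0.34; limma, adjusted p = 0.241), and MMP2 had 111 and 114 TPM after 24 h and 67.1 and 41.5 after 3 h (log2 fold change 1.07 ± 0.32; limma, adjusted p = 0.241). None of the 9 passed in limma, as did none of the 4388 genes (0%). An unadjusted p under 0.05 was found for 6 members and for 663 of all genes. The numbered block called 28 genes (0.638%), no member among them.

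TIMP1 was the exception to this separation. It read 302.7 and 74.8 TPM after 3 h of HOPE, 240.3 and 267.4 after 24 h and 363.4 and 153.9 after 48 h. The 2 libraries at 3 h lay on both sides of those at 24 h, and those at 48 h did so as well. The log2 fold change was 0.75 ± 0.65 at 24 h over 3 h and 0.65 ± 0.65 at 48 h over 3 h (limma, adjusted p = 0.636 and 0.843), and without the second 3 h library it was -0.26 and -0.35.

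After 48 h of HOPE and NMP the members lay mostly between the 2 earlier groups. Over 3 h, all 9 were positive with a median of 0.62 (all genes 0.02), and 4 of 9 did not overlap, where 19.4% of all genes were higher without overlap. POSTN had 16.2 and 25.2 TPM after 48 h and 6.06 and 8.83 after 3 h (log2 fold change 1.35 ± 0.36; limma, adjusted p = 0.375). THBS1 had 752 and 575 TPM after 48 h (log2 fold change 1.28 ± 0.45 over 3 h; limma, adjusted p = 0.516). None of the 9 passed in limma, and 3 had an unadjusted p under 0.05, as had 354 of the 4388 genes. Against 24 h of HOPE, 7 members were negative and 2 positive, with none past the threshold or under an unadjusted p of 0.05 in limma, which called 0.0684% of all genes with or without the number block.

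**Figure D5:**
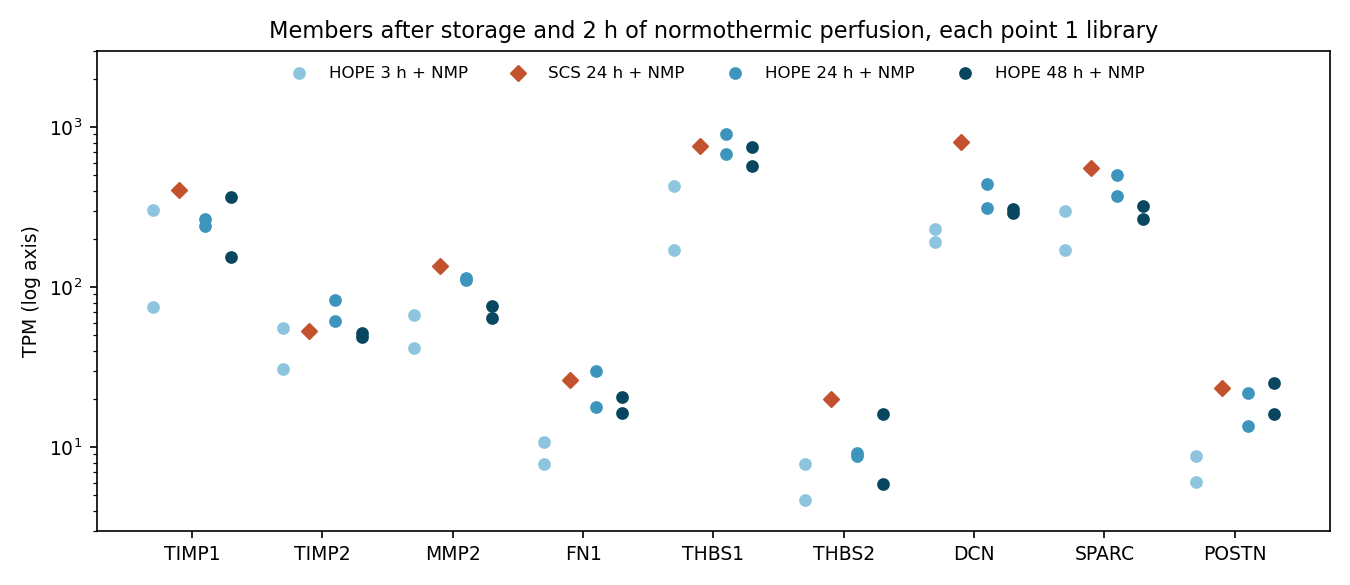
TPM (y axis, log scale) of the 9 members of arm 2 (x axis) after storage and 2 h of normothermic perfusion, with 1 point per library. For each gene the groups run from left to right as HOPE 3 h, SCS 24 h (diamond), HOPE 24 h and HOPE 48 h. DCN in the SCS library, at 811 TPM, lies above all 6 HOPE libraries.

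After 24 h of SCS and NMP, DCN read 811 TPM, against 310 and 439 TPM after 24 h of HOPE and NMP. Its log2 fold change of 1.13 ± 0.38 made it the 1 member of 9 past the threshold (limma, adjusted p = 0.0348), higher where most called genes were lower. It missed the threshold with the libraries' numbers as a block (limma, adjusted p = 0.0519), where 55.8% of all genes passed, and with lower minimum means (limma, adjusted p = 0.051 and 0.0759), and leaving out either HOPE 24 h library ended the call (limma, adjusted p = 0.206 and 0.075). In this test the spread of the single SCS library was taken to equal that within the HOPE groups.

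TIMP1 read 402 TPM in that SCS library, against 240 and 267 TPM after 24 h of HOPE, above all 6 HOPE libraries, with a log2 fold change of 0.66 ± 0.79 (limma, adjusted p = 0.485). TIMP2, measured only here, read 52.9 TPM in SCS, against 61.3 and 83.6 TPM after 24 h of HOPE (log2 fold change -0.43 ± 0.43; limma, adjusted p = 0.407). THBS2 was also above all HOPE libraries, at 19.9 TPM in SCS, against 9.22 and 8.76 TPM after 24 h of HOPE. So were MMP2 at 135 TPM and SPARC at 552 TPM in SCS. THBS2 had an arm mean of 10.3 TPM and passed the minimum of 10 only through this SCS library. Its high value in SCS, and its place in the counts that follow, are therefore no support. For 6 of 9 members the SCS library was above both HOPE 24 h libraries, as for 10.8% of all genes. For TIMP2 it was below both, as for 84.3% of all genes. Of the 9 members 7 were positive, with a median of 0.36 beside -1.12 for all genes. Scaling by median ratios called 4 members, all higher (MMP2, THBS2, DCN and SPARC), where it called 29% of all genes. Quantile normalization called 5 (these and FN1), where it called 20.9%.

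Genes of the same lists lay on both sides in this comparison, whose p-values rest on 1 SCS library and the spread within the HOPE groups. The fibroblast collagens COL3A1 and COL1A2 passed, with COL3A1 at 1308 TPM in SCS, against 443 ± 91.9 after 24 h of HOPE (SD, n = 2; limma, adjusted p = 0.0085), and ELN (elastin) passed at 274 TPM in SCS, against 47.2 ± 6.70 (limma, adjusted p = 0.0248). Stromelysin 3 (MMP11) was lower, at 4.21 TPM in SCS, against 193 ± 56.4 (limma, adjusted p = 0.000461), and the fibronectin receptor subunit ITGA5 was lower by a log2 fold change of -3.42 ± 0.55 (limma, adjusted p = 0.00235). Without the first HOPE 24 h library COL1A2, COL3A1 and ELN missed the threshold (limma, adjusted p = 0.0631, 0.0663 and 0.0523), while MMP11 and ITGA5 passed without any 1 of the 6 HOPE libraries (limma, adjusted p up to 0.00238 and 0.00656). The summed fibroblast markers were 1964 TPM in SCS, against 615 and 827 TPM after 24 h of HOPE. The part of the low cardiomyocyte share of this library in the members' TPM was not tested.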

How the data were processed

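Per the labels' protocols, myocardial biopsies gave poly(A)-selected libraries, stranded in arm 1. The submitters' processing notes name the aligners STAR 2.5.2b and HISAT2 2.2.1, the counters Subread 1.5.2 and featureCounts 2.0.6, the build Sscrofa11.1, and Trimmomatic 0.36, bcl2fastq 2.17, FastQC and DESeq2. Which arm used which, and strand use, are not given there. The arm 1 signal deposited by the authors was gene counts divided by size factors. Whole reads were recovered for 100% of values above 0 (relative tolerance 1e-06). The arm 2 values deposited by the authors read as TPM (each column sums to 1000000), of unknown depth, in place of the normalized counts the design assumed; 11 columns matched no sample here and were not used.

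limma 3.58.1 (R 4.3.3) was fitted per arm on log2(value + 1) for genes with an arm mean of at least 10, all groups sharing 1 spread (16 and 3 residual degrees of freedom), with Benjamini-Hochberg adjustment over all tested genes. edgeR 4.0.16 and DESeq2 1.42.0 were run on the recovered reads. The fits were tested on simulated data, where DESeq2, used only as an alternative, called more genes falsely and was not held to the limit on false calls set for the other fits. Equal pig numbers mark the same heart (same-pig correlation 0.232 to 0.73 over 36 pairs), so a pig block was fitted as well: as a fixed term for changes, and as a random term (correlation 0.44) for HOPE against SCS. Arm 2 libraries are not said to be separate animals, so their p-values measure the spread between libraries, which may be technical.

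The members and lists were chosen with earlier results of these data known. The genes named were the 10 members, up to 3 per list with the smallest p past the threshold at 48 h or in arm 2 and a mean of at least 100 normalized counts or 10 TPM, and the 3 nearest to each member; those nearest to MMP2 are not reported here. Positions are from RefSeq for Sscrofa11.1. No sequence is shown.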

Additional observations from a re-analysis of the deposited data

Results flagged for a closer look

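TIMP1 at 12 h moved one way in every HOPE heart and the other way in every SCS heart, with log2 changes of -0.76 to -0.24 in HOPE and 0.18 to 0.48 in SCS; 8.09% of all genes had changes that were apart with HOPE lower. The changes differed by -0.73, HOPE minus SCS, and this difference was not tested. At 48 h the difference in the TIMP1 change was -1.22 and passed a test of the difference itself with the pig block (limma, adjusted p = 0.0418). It missed the threshold without the block, and also with the block under total-count scaling. Leaving out a pig or a library kept the call in 2 of 8 fits (limma with the pig block, adjusted p of 0.0299 to 0.367). THBS1 at 48 h was above its start in every HOPE heart and below it in every SCS heart, where 7.91% of all genes had changes apart with HOPE higher. Its difference of 0.82 missed the threshold (limma with the pig block, adjusted p = 0.164) and was 1.81 with total-count scaling (limma with the pig block, adjusted p = 0.00323).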

How the results depend on the processing

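Of the single-gene values under other settings, 1330 kept direction and side of the threshold, 49 came to pass it, 22 no longer passed and 63 reversed; of the counts of members called, 237 held and 31 moved. The cause was not tested. Depth is unknown in arm 2, and 3 hearts or fewer a group limit precision.

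Counts of members called moved as follows. In SCS at 48 h against 0 h, 0 became 4 with total-count scaling and 2 with the replicate block. In HOPE against SCS at 24 h, 1 became 0 with total-count scaling or only the libraries compared, 3 with the block, 2 without the HOPE 0 h library of pig 6, 5 with DESeq2, and 0 to 4 leaving out a pig. At 12 h leaving out a pig gave 0 to 1. At 48 h, 1 became 5 with total-count scaling, 2 with the block, 0 with only the libraries compared or without the SCS 48 h library of pig 5, and 0 to 2 leaving out a pig. The difference at 48 h had 1 with the block. In arm 2, SCS 24 h against HOPE 24 h, 1 became 0 with a minimum mean of 1, no filter or the number block, 5 with quantile normalization, 4 with median-ratio scaling, and 0 to 1 leaving out a library.

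Reversed log2 values in SCS at 48 h against 0 h were, with total-count scaling, TIMP1 -0.012 (also with the block) and DCN -0.66; without the SCS 48 h library of pig 5, THBS2 0.25 and POSTN 0.015; with edgeR, THBS2 0.087 and SPARC 0.0032; and with DESeq2, THBS2 0.071. In HOPE at 48 h against 0 h, without the HOPE 0 h library of pig 6, TIMP1 was 0.019, TIMP3 0.15 and SPARC 0.10; THBS1 was -0.021 with totals without mitochondrially encoded genes and -0.040 with quantile normalization. In HOPE against SCS at 24 h TIMP3 was 0.35 with total-count scaling and 0.069 with quantile normalization, and THBS2 0.16 with total-count scaling. At 48 h total-count scaling gave MMP2 0.98, DCN 0.77, SPARC 0.73 and POSTN 0.84, and FN1 was -0.0007 with quantile normalization and -0.015 without the SCS 48 h library of pig 5. In the difference at 48 h DCN was 0.85 with total-count scaling, and SPARC -0.020 without that library, -0.074 with edgeR and -0.059 with DESeq2. In arm 2, THBS2 at 24 h over 3 h was -0.17 with quantile normalization, and at 48 h over 24 h median-ratio scaling gave TIMP1 0.17 and THBS1 0.020. In SCS 24 h against HOPE 24 h TIMP2 was 0.77 and THBS1 0.84 with quantile normalization, and 0.37 and 0.78 with median-ratio scaling.

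Leaving out a pig changed the sign of these values. In SCS at 48 h against 0 h MMP2 ran from -0.24 to 0.13, FN1 from -0.65 to 0.17, THBS2 from -0.63 to 0.26, SPARC from -0.39 to 0.14 and POSTN from -0.11 to 0.043. In HOPE at 48 h against 0 h TIMP3 ran from -0.20 to 0.088. In HOPE against SCS TIMP3 ran from -0.44 to 0.20 at 24 h, and at 48 h TIMP3 from -0.036 to 0.95, MMP2 from -0.37 to 0.081, FN1 from -0.094 to 0.58 and SPARC from -0.72 to 0.040. In the difference at 48 h DCN ran from -0.31 to 0.072 and SPARC from -0.21 to 0.32. Leaving out a library of arm 2, TIMP1 at 24 h over 3 h ran from -0.26 to 1.75; at 48 h over 3 h TIMP1 from -0.35 to 1.65, TIMP2 from -0.14 to 0.69, THBS2 from -0.033 to 1.27 and SPARC from -0.027 to 0.78; at 48 h over 24 h TIMP1 from -0.72 to 0.52, FN1 from -0.68 to 0.040, THBS2 from -0.53 to 0.78 and POSTN from -0.11 to 0.56; and in SCS against HOPE FN1 from -0.19 to 0.53 and THBS1 from -0.24 to 0.17.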
